A study of Mus musculus with 18 samples.

Results

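The BCL2 family genes described here are 10 genes whose proteins hold back or carry out the opening of the outer mitochondrial membrane that starts apoptosis. They were chosen by symbol from the larger family, with earlier results of these data known. They are 5 anti-apoptotic genes (*Bcl2*, *Bcl2l1*, *Mcl1*, *Bcl2a1b* and *Bcl2a1d*), 2 effectors (*Bax* and *Bak1*) and 3 BH3-only genes (*Bid*, *Bcl2l11* and *Pmaip1*). They are 10 of 55029 genes listed for 12 of the libraries and 10 of 54232 genes listed for the other 6. Each of the 10 passed the filter on low counts in both sets of libraries, and the fewest counts of any of them in any library was 13.

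The data are counts of mouse eosinophil RNA in 18 libraries, made with CEL-Seq2, a method that reads the 3′ end of transcripts. The eosinophils were washed from the peritoneal cavity of C57BL/6 mice of the NJ.1638 line, which carry an *Il5* transgene, and cells bound by beads against Thy1.2 or B220 were removed. Stimulated cells were kept for 18 h in DMEM with fetal calf serum. There were 3 libraries each with heat-inactivated *E. coli*, with IFN-γ at 50 ng/ml, with IFN-γ at 50 ng/ml and *E. coli* together, and with IL-4 at 100 ng/ml, and 6 unstimulated libraries, called a to f here, whose time in culture is not stated. Unstimulated libraries a to c belong with *E. coli*, IFN-γ and both stimuli in a set of 12 libraries, called set 1 here, and unstimulated libraries d to f with IL-4 in a set of 6, the IL-4 set. All groups, controls included, come from mice with the *Il5* transgene, so no group shows eosinophils that matured without it. Libraries of set 1 had 1523808 to 2734041 counts on genes, and those of the IL-4 set 3625036 to 6482289. The study calls the libraries of a group biological replicates, without stating whether they came from separate animals or cultures, so p-values here measure only the spread between libraries.

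As background, anti-apoptotic BCL2 proteins bind the effectors BAX and BAK and the BH3-only proteins, and a cell dies when BH3-only proteins occupy them and the effectors open pores that let cytochrome c out of mitochondria. Which of these genes a cell transcribes is part of how it sets its lifespan, since proteins such as MCL1 and A1 turn over quickly. Eosinophils are short-lived cells whose survival outside the bone marrow depends on cytokines, IL-5 among them.

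Levels are given as CPM, counts relative to the library total scaled by TMM. A level of 3 counts, the smallest treated as distinct from 0, was 1.1 to 1.97 CPM in set 1 and 0.463 to 0.828 CPM in the IL-4 set. These 2 ranges are relative to library totals without the TMM scaling. The eosinophil markers checked the labelled cell type. Their summed level was 3521 to 6608 CPM over the 18 libraries, with *Ccr3* at 1196 to 1779 CPM the most abundant on average in set 1 and *Alox15* at 2337 to 2455 CPM in the IL-4 set. In set 1 counts of *Ccr3* reached 3576 and those of *Alox15* 3732, near the limit of 4096 described below for *Mcl1*. The sums and this order were not corrected for that limit. Each of the 12 markers had counts in both sets, but 4 of them, the granule genes *Epx* and *Prg3* and the RNase genes *Ear1* and *Ear2*, did not pass the filter on low counts in set 1. In the IL-4 set unstimulated library e stood apart from d and f: its counts differed from theirs with a chi-square per gene of 21.4 and 19.8, against 7.17 between d and f and at most 5.46 between other libraries of a group.

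Against unstimulated cells, *E. coli* raised *Pmaip1* and the anti-apoptotic genes other than *Mcl1* (those of A1 depending on how their copies were counted), IFN-γ raised effector and BH3-only genes and *Mcl1* while the other anti-apoptotic genes fell, both stimuli together gave the highest *Pmaip1* and *Bcl2l11*, and IL-4 raised *Bcl2l11* and lowered *Pmaip1* and *Bax*. Calls were made by edgeR's quasi-likelihood test at a Benjamini-Hochberg adjusted p under 0.05 over all genes tested. With *E. coli* 5 of the 10 genes were called, each higher, where 30.2% of 9883 genes were called, and the median log2 fold change of the 10 was 0.46 against -0.02 over all genes. With IFN-γ 10 of 10 were called, 6 higher and 4 lower, where 31.6% of all genes were called, with a median of 0.42 against -0.03. With both stimuli 8 of 10 were called, 6 higher and 2 lower, beside 49.0% of all genes, and the medians were 0.48 and -0.04. With IL-4 3 of 10 were called, 1 higher and 2 lower, beside 10.3% of 10556 genes, and the medians were -0.28 and 0.00. The comparisons of *E. coli*, IFN-γ and both stimuli share unstimulated libraries a to c. In bulk RNA, fewer cells of a type and less RNA per cell cannot be told apart, here and in each difference below.

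**Figure D1:**
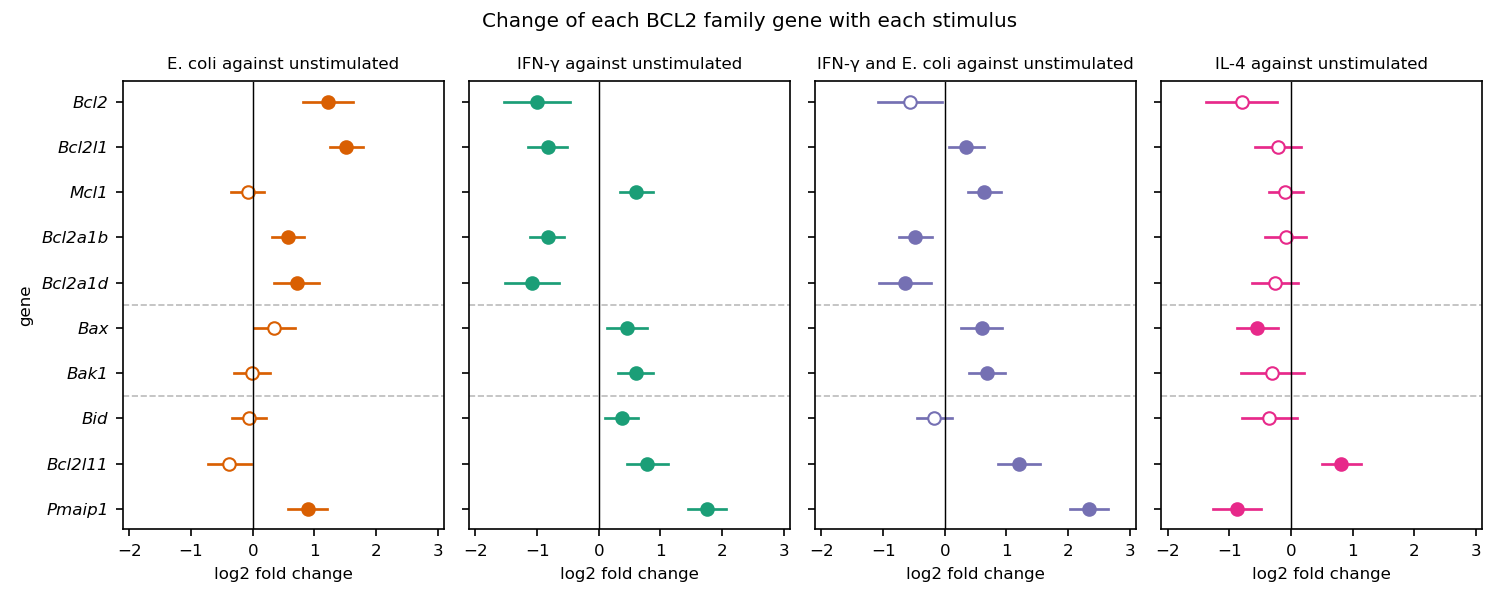
Log2 fold change (horizontal axis) of the 10 BCL2 family genes (vertical axis) with each stimulus against the unstimulated libraries of its set. Lines are 95% confidence intervals from approximate standard errors, filled points were called by edgeR's quasi-likelihood test and open points were not, and dashed lines part anti-apoptotic genes, effectors and BH3-only genes. *Pmaip1* with both stimuli lies farthest from 0, at 2.34.

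*Bcl2* (ENSMUSG00000057329, chr1:106538178-106714274 on GRCm38) encodes the founding anti-apoptotic protein of the family. Unstimulated libraries a to c held 18.6, 20.3 and 14.5 CPM, the *E. coli* libraries 49.8, 40.5 and 32.6, the IFN-γ libraries 7.28, 8.71 and 10.5, and the libraries with both stimuli 12.4, 12.6 and 10.6. The *E. coli* libraries were thus all above the unstimulated ones and those with IFN-γ or both stimuli all below, without overlap. By edgeR's quasi-likelihood test (Benjamini-Hochberg), *Bcl2* rose with *E. coli* by a log2 fold change (± approximate standard error) of 1.22 ± 0.19 (adjusted p = 8.77e-05) and fell with IFN-γ to 0.499 of its unstimulated level (adjusted p = 0.00551). With both stimuli the log2 fold change of *Bcl2* was -0.56 ± 0.25 (edgeR, Benjamini-Hochberg adjusted p = 0.0655), which did not pass and had an adjusted p of 0.0373 without unstimulated library c. *Bcl2* in the IL-4 set stood at 40.5, 47.2 and 31.5 CPM in unstimulated libraries d to f and at 29.5, 24.6 and 13.7 CPM with IL-4. All 3 IL-4 libraries were lower, and the fold change of -0.80 ± 0.26 missed the threshold by edgeR's quasi-likelihood test (Benjamini-Hochberg) (adjusted p = 0.0795) but passed it in DESeq2 (adjusted p = 0.0320). Without a filter on low counts it passed in edgeR as well (Benjamini-Hochberg adjusted p = 0.00144).

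*Bcl2l1* (ENSMUSG00000007659, chr2:152780668-152831728) encodes BCL-XL, which binds both effectors and BH3-only proteins. Its level was 64.8, 75.4 and 74.3 CPM in unstimulated libraries a to c, 204, 201 and 207 CPM with *E. coli*, 50.9, 32.3 and 37.3 CPM with IFN-γ and 90.6, 98.1 and 83.1 CPM with both. The *E. coli* libraries were the highest, those with both stimuli came next, above unstimulated cells, and those with IFN-γ alone were the lowest, with no overlap between any of these groups. *Bcl2l1* rose 2.86 fold with *E. coli* (log2 1.52 ± 0.13, adjusted p = 6.60e-08) and fell to 0.563 of its unstimulated level with IFN-γ (log2 -0.83 ± 0.15, adjusted p = 3.38e-04) by edgeR's quasi-likelihood test (Benjamini-Hochberg). With both stimuli the same test gave a log2 fold change of 0.35 ± 0.14 at a Benjamini-Hochberg adjusted p of 0.0448 in edgeR. This call was lost without unstimulated library a or c, *E. coli* library 1 or 2, or library 1 or 2 with both stimuli, at edgeR adjusted p-values (Benjamini-Hochberg) of 0.174, 0.0606, 0.0561, 0.0562, 0.0601 and 0.155. *Bcl2l1* in the IL-4 set was 65.3, 87.3 and 59.8 CPM unstimulated and 55.5, 60.8 and 68.4 CPM with IL-4, groups that overlapped.

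*Mcl1* (ENSMUSG00000038612, chr3:95658788-95663176) encodes a short-lived anti-apoptotic protein that NOXA binds and BIM binds as well. Its level was 1021, 1310 and 1104 CPM in unstimulated libraries a to c, 1114, 969 and 1157 CPM with *E. coli*, 1649, 1581 and 1997 CPM with IFN-γ and 1811, 1628 and 1922 CPM with both. Libraries with IFN-γ, alone or with *E. coli*, were all above the unstimulated ones, and those with *E. coli* alone overlapped them. *Mcl1* rose by log2 0.61 ± 0.13 with IFN-γ (adjusted p = 0.00139) and by 0.64 ± 0.13 with both stimuli (adjusted p = 4.29e-04) in edgeR's quasi-likelihood test (Benjamini-Hochberg). Its counts of 2067 to 3084 in set 1 lay near a limit of that set, in which the highest count of any gene was 4089 to 4095 in each library, just under the 4096 sequences that a molecular identifier of 6 bases can have. Corrected for a limit of 4096, the level was 1275 to 1405 CPM unstimulated, 2235 to 2833 CPM with IFN-γ and 2155 to 2595 CPM with both. The corrected log2 fold change of *Mcl1* was 0.86 with IFN-γ and 0.79 with both, larger than without the correction. In the IL-4 set, where no such limit was seen, *Mcl1* was 1494, 1923 and 1462 CPM unstimulated and 1585, 1508 and 1507 CPM with IL-4, and these groups overlapped.

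*Bcl2a1b* and *Bcl2a1d* encode A1, an anti-apoptotic protein of blood cells, in near-identical copies that the mouse carries on chromosome 9 beside *Bcl2a1a*. *Bcl2a1b* (ENSMUSG00000089929, chr9:89199209-89207827) stood at 170, 222 and 182 CPM in unstimulated libraries a to c, 291, 290 and 270 CPM with *E. coli*, 104, 109 and 108 CPM with IFN-γ and 112, 138 and 158 CPM with both. *Bcl2a1d* (ENSMUSG00000099974, chr9:88723285-88731914) stood at 48.4, 68.4 and 53.3 CPM, 82.8, 90.6 and 103 CPM, 31.3, 19.0 and 29.4 CPM, and 27.0, 35.6 and 44.8 CPM in the same order of groups. For either gene the *E. coli* libraries were all above the unstimulated ones, and those with IFN-γ or both stimuli all below. By edgeR's quasi-likelihood test (Benjamini-Hochberg), *Bcl2a1b* rose by log2 0.57 ± 0.12 with *E. coli* (adjusted p = 0.00137) and changed by -0.83 ± 0.13 with IFN-γ (adjusted p = 7.22e-05) and -0.48 ± 0.13 with both (adjusted p = 0.00442). For *Bcl2a1d*, edgeR's quasi-likelihood test (Benjamini-Hochberg) gave log2 0.72 ± 0.18 with *E. coli* (adjusted p = 0.00420), -1.09 ± 0.21 with IFN-γ (adjusted p = 5.06e-04) and -0.64 ± 0.20 with both (adjusted p = 0.0131). The last call was lost without unstimulated library b or library 1 with both stimuli, at edgeR adjusted p-values (Benjamini-Hochberg) of 0.0746 and 0.0855.

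How reads were shared among the copies limits these values. The coding sequences have 516 bases each, and *Bcl2a1b* and *Bcl2a1d* were identical at 98.8% of them, *Bcl2a1a* and *Bcl2a1d* at 98.6%, and *Bcl2a1a* and *Bcl2a1b* at 97.9%. Of all windows of 50 bases in its GENCODE transcript, 20.8% occurred in no other gene for *Bcl2a1b*, 20.5% for *Bcl2a1d* and 31.0% for *Bcl2a1a*, and in the last 300 bases, where 3′ reads fall, 23.5%, 5.18% and 35.5%. Only uniquely mapped reads were counted, so the counts of each copy come from the few stretches that tell it apart. *Bcl2a1a* held 589 to 704 CPM unstimulated, 683 to 712 CPM with *E. coli*, 276 to 317 CPM with IFN-γ and 276 to 348 CPM with both, more than the other copies in each group as counted. *Bcl2a1a* was not called with *E. coli* (log2 0.13 ± 0.11, or 0.22 ± 0.11 when corrected for the limit of 4096, with 563 to 633 CPM unstimulated and 657 to 711 CPM with *E. coli*), and it fell by log2 -1.09 ± 0.11 with IFN-γ and -0.99 ± 0.11 in the presence of both. *Bcl2a1c* had 0 to 4 counts in each library. With the 4 copies summed as 1 gene, the rise with *E. coli* was 0.28 ± 0.12 and no longer passed in edgeR's quasi-likelihood test (Benjamini-Hochberg) (adjusted p = 0.0738), while the fall was -1.03 ± 0.12 with IFN-γ (adjusted p = 2.06e-06) and -0.84 ± 0.12 with both (adjusted p = 1.01e-05). Summed after correction for the limit, an alternative chosen after the data had been seen, the copies rose with *E. coli* by 0.34 ± 0.11 and passed (edgeR, Benjamini-Hochberg adjusted p = 0.0311). *Bcl2a1b* in the IL-4 set was 168, 130 and 135 CPM unstimulated and 141, 152 and 115 CPM with IL-4, *Bcl2a1d* 22.8, 21.0 and 19.8 CPM and 17.7, 18.6 and 16.8 CPM, and neither passed the test. The 4 copies summed had a log2 fold change of -0.01 ± 0.12 with IL-4.

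The start of the 3 coding sequences shows how little separates the copies. Coding bases 1 to 120, which lie within a single exon, hold 7 of the 12 positions at which any of the 3 copies differ, and capitals mark these 7 positions. They are at chr9:88957051-88957170 on the plus strand for *Bcl2a1a*, chr9:89199360-89199479 on the plus strand for *Bcl2a1b* and chr9:88731600-88731719 on the minus strand for *Bcl2a1d* of GRCm38.
Bcl2a1a: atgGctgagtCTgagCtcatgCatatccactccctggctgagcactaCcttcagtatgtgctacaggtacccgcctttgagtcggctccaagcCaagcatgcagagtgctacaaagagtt
Bcl2a1b: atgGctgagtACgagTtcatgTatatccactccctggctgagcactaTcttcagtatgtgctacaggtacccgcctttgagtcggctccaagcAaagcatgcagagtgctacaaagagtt
Bcl2a1d: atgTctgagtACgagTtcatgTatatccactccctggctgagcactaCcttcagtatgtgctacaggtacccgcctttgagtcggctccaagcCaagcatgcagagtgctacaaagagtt

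**Figure D2:**
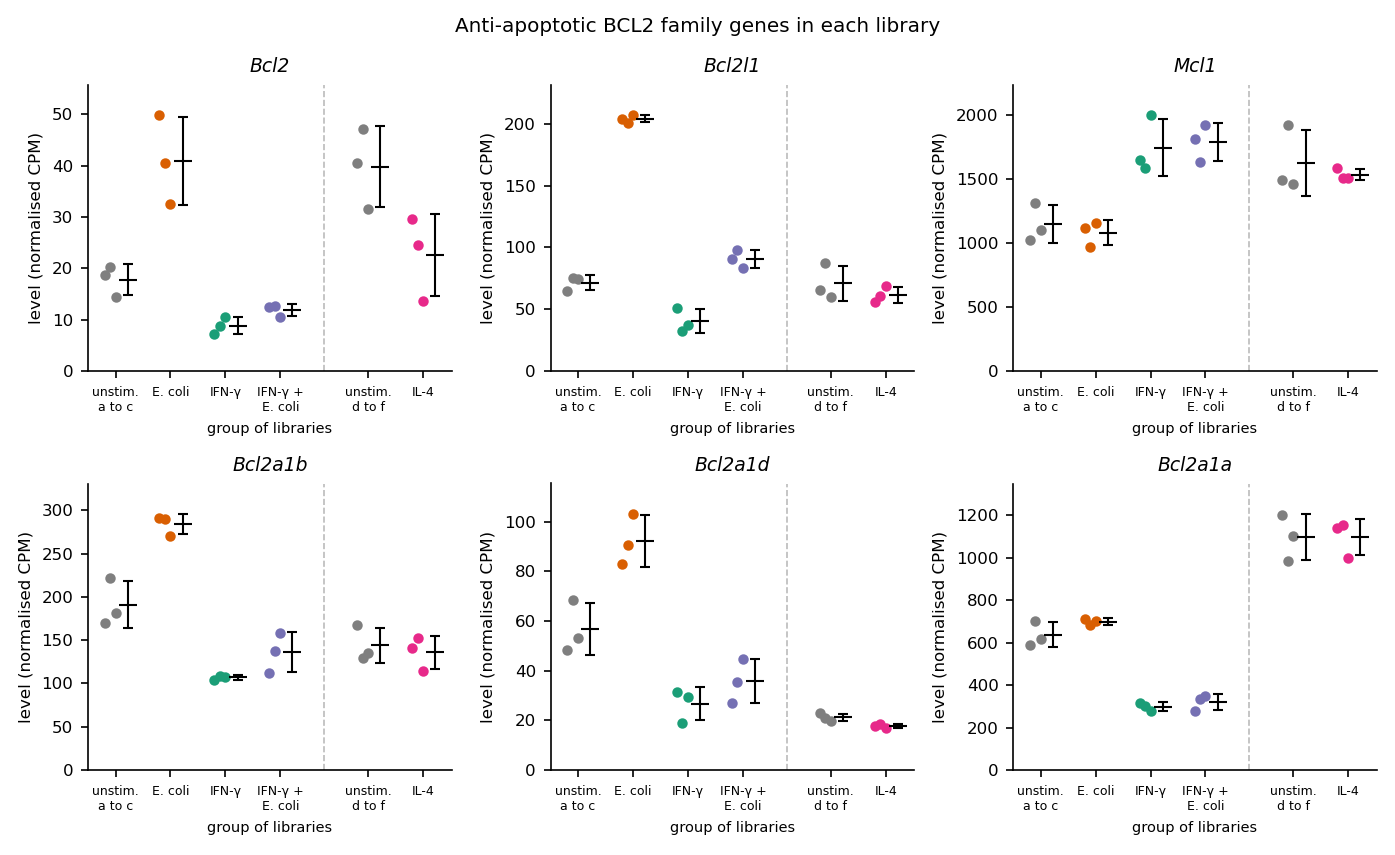
Level in normalised CPM (vertical axis) of the anti-apoptotic genes and of *Bcl2a1a* in each library, by group (horizontal axis), with the mean and SD of each group of 3 in black and a dashed line between the 2 sets. *Bcl2l1* was 201 to 207 CPM with *E. coli*, above the other groups of its set.

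The effectors BAX and BAK form the pores. *Bax* (ENSMUSG00000003873, chr7:45461697-45466898) was 88.3, 113 and 77.6 CPM in unstimulated libraries a to c, 103, 115 and 135 CPM with *E. coli*, 146, 126 and 107 CPM with IFN-γ and 144, 157 and 117 CPM with both. *Bak1* (ENSMUSG00000057789, chr17:27019810-27029009) was 52.5, 62.7 and 54.1 CPM, 59.6, 53.5 and 53.8 CPM, 87.9, 89.2 and 77.2 CPM, and 78.1, 105 and 85.1 CPM in these groups. For *Bak1* the libraries with IFN-γ or both stimuli were all above the unstimulated ones, and for *Bax* those with both stimuli were, while those with IFN-γ or *E. coli* alone overlapped them. In edgeR's quasi-likelihood test (Benjamini-Hochberg), *Bak1* rose by log2 0.60 ± 0.14 with IFN-γ (adjusted p = 0.00236) and 0.68 ± 0.14 with both (adjusted p = 4.20e-04). *Bax* rose by 0.60 ± 0.16 with both (adjusted p = 0.00393) and 0.46 ± 0.16 with IFN-γ (adjusted p = 0.0319) by edgeR's quasi-likelihood test (Benjamini-Hochberg). The call with IFN-γ was lost without unstimulated library a or c or IFN-γ library 1 or 2 (edgeR, Benjamini-Hochberg adjusted p = 0.110, 0.141, 0.145 and 0.0523). With *E. coli*, *Bak1* had a log2 fold change of -0.01 ± 0.14, and *Bax* one of 0.35 ± 0.16 that missed the threshold (edgeR, Benjamini-Hochberg adjusted p = 0.0976) and passed without unstimulated library b or library 3 with both stimuli (edgeR, adjusted p = 0.0214 and 0.0472).

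With IL-4 the effectors did not rise. *Bax* was 93.9, 80.5 and 104 CPM in unstimulated libraries d to f and 55.9, 71.4 and 63.0 CPM with IL-4, all 3 lower. Its log2 fold change of -0.55 ± 0.15 passed at an adjusted p of 0.0452 in edgeR's quasi-likelihood test (Benjamini-Hochberg). That call was lost without IL-4 library 1, 2 or 3 or unstimulated library d or f, at edgeR adjusted p-values (Benjamini-Hochberg) of 0.215, 0.0851, 0.133, 0.0708 and 0.135, and held without unstimulated library e (log2 -0.65, edgeR adjusted p = 0.00420). *Bak1* was 29.2, 50.2 and 27.9 CPM unstimulated and 31.2, 30.1 and 26.2 CPM with IL-4, overlapping groups in which library e held the highest value. Its log2 fold change was -0.30 ± 0.23 with library e and 0.03 without it.

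BH3-only proteins start the pathway, and *Pmaip1*, which encodes NOXA, a partner of MCL1 and A1, had the largest fold change of the 10 genes with IFN-γ and with both stimuli. *Pmaip1* (ENSMUSG00000024521) was 58.9, 71.6 and 89.6 CPM in unstimulated libraries a to c, 131, 145 and 130 CPM with *E. coli*, 226, 238 and 281 CPM with IFN-γ and 341, 344 and 431 CPM with both. The 4 groups did not overlap, and their means rose in that order, from 73.4 ± 15.4 CPM (SD, n = 3) unstimulated to 372 ± 50.9 CPM (SD, n = 3) with both. By edgeR's quasi-likelihood test (Benjamini-Hochberg), *Pmaip1* rose 1.85 fold with *E. coli* (log2 0.89 ± 0.15, adjusted p = 1.59e-04), 3.38 fold with IFN-γ (log2 1.76 ± 0.15, adjusted p = 4.52e-08) and 5.07 fold with both (log2 2.34 ± 0.15, adjusted p = 3.12e-10). In the IL-4 set it went the other way, from 179, 246 and 158 CPM unstimulated to 111, 114 and 91.5 CPM. All 3 IL-4 libraries were lower, and the log2 fold change of *Pmaip1* was -0.88 ± 0.17 (edgeR's quasi-likelihood test, Benjamini-Hochberg adjusted p = 0.0106). Without unstimulated library e, the highest of its group, it was -0.67 (edgeR, adjusted p = 0.00179), and without IL-4 library 3 the call was lost (log2 -0.80, edgeR adjusted p = 0.0585).

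*Bcl2l11* (ENSMUSG00000027381, chr2:128126038-128162547) encodes BIM, which binds each anti-apoptotic protein of the family. It was 41.7, 37.4 and 38.8 CPM in unstimulated libraries a to c, 26.1, 26.4 and 40.0 CPM with *E. coli*, 67.2, 67.7 and 70.0 CPM with IFN-γ and 105, 90.4 and 78.5 CPM with both. Libraries with IFN-γ and with both stimuli were all above the unstimulated ones, and 2 of the 3 *E. coli* libraries were below them. The log2 fold change of *Bcl2l11* was 0.79 ± 0.16 with IFN-γ (adjusted p = 0.00105) and 1.21 ± 0.16 with both (adjusted p = 5.31e-06) by edgeR's quasi-likelihood test (Benjamini-Hochberg). With *E. coli* it was -0.38 ± 0.17 (edgeR, Benjamini-Hochberg adjusted p = 0.106), and without *E. coli* library 3, the 1 that overlapped the unstimulated libraries, -0.58 (edgeR, adjusted p = 0.0149). *Bcl2l11* also rose with IL-4, from 38.0, 32.0 and 32.3 CPM in unstimulated libraries d to f to 59.5, 59.6 and 60.9 CPM. The IL-4 libraries lay close together and well above the controls, with a log2 fold change of 0.82 ± 0.14 in edgeR's quasi-likelihood test (Benjamini-Hochberg) (adjusted p = 0.00495), and of 0.78 without unstimulated library e (adjusted p = 0.00219).

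*Bid* (ENSMUSG00000004446, chr6:120891930-120916853) encodes the protein that caspase-8 cleaves to link death receptors to mitochondria. Its level was 70.8, 93.8 and 73.1 CPM in unstimulated libraries a to c, 77.9, 75.6 and 72.1 CPM with *E. coli*, 104, 99.4 and 101 CPM with IFN-γ and 62.8, 66.3 and 79.8 CPM with both. The IFN-γ libraries were the highest and overlapped no other group. *Bid* rose by log2 0.37 ± 0.13 with IFN-γ in edgeR's quasi-likelihood test (Benjamini-Hochberg) (adjusted p = 0.0346), a call lost in DESeq2 (adjusted p = 0.0513). It was also lost without unstimulated library a or c or without IFN-γ library 1, 2 or 3, at edgeR adjusted p-values (Benjamini-Hochberg) of 0.161, 0.113, 0.0866, 0.0539 and 0.0637. *Bid* in the IL-4 set was 47.8, 75.9 and 53.2 CPM unstimulated and 46.8, 54.0 and 37.8 CPM with IL-4, and these groups overlapped.

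**Figure D3:**
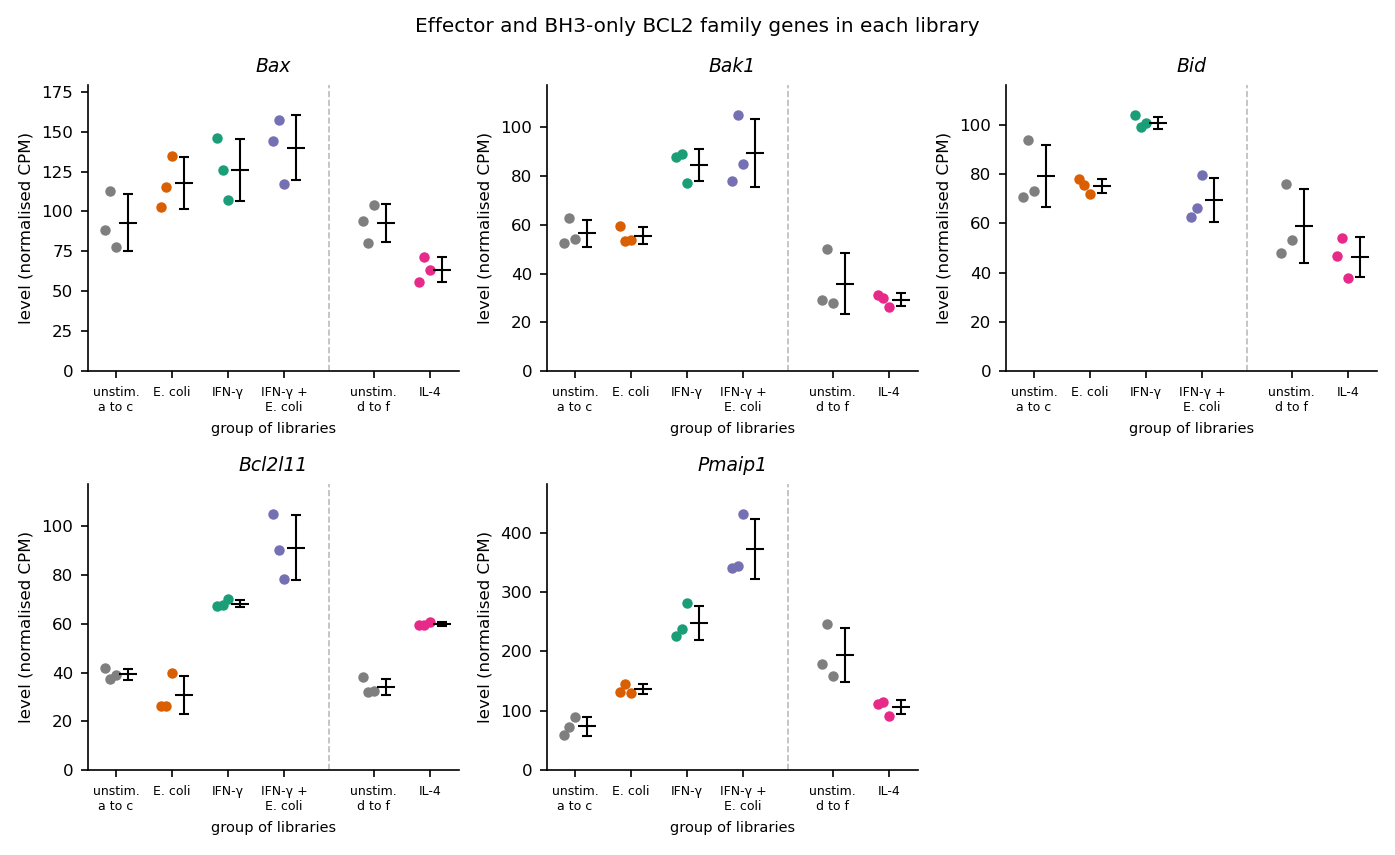
Level in normalised CPM (vertical axis) of the effector and BH3-only genes in each library, by group (horizontal axis), with the mean and SD of each group of 3 in black and a dashed line between the 2 sets. *Pmaip1* had a mean of 73.4 CPM unstimulated and 372 CPM with both stimuli, and fell with IL-4.

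The libraries with both stimuli show what IFN-γ did to cells that also met *E. coli*. Against *E. coli* alone, 8 of the 10 genes were called by edgeR's quasi-likelihood test, 4 higher and 4 lower, beside 32.8% of all genes, and the median log2 fold change of the 10 was 0.07 against -0.02 over all genes. The lower genes were *Bcl2* (-1.79 ± 0.22), *Bcl2a1d* (-1.35 ± 0.19), *Bcl2l1* (-1.17 ± 0.13) and *Bcl2a1b* (-1.06 ± 0.13), so each anti-apoptotic gene that *E. coli* had raised was lower when IFN-γ was present too. Higher were *Bcl2l11* (1.58 ± 0.16), *Pmaip1* (1.45 ± 0.14), *Mcl1* (0.73 ± 0.13) and *Bak1* (0.69 ± 0.14). The libraries of the groups compared did not overlap for any of these 8 genes, and for *Bax* and *Bid*, at 0.25 ± 0.15 and -0.11 ± 0.13, they did. Shares of all genes without overlap are not given for this or the other comparisons, so a lack of overlap does not set the members apart from other genes.

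Added to IFN-γ, *E. coli* changed fewer of the genes. Against IFN-γ alone, 3 of 10 were called by edgeR's quasi-likelihood test, 2 higher and 1 lower, beside 12.2% of all genes, with a median of 0.38 against 0.01. *Bcl2l1* rose by log2 1.18 ± 0.15 (adjusted p = 3.08e-05), *Pmaip1* rose by 0.59 ± 0.14 (adjusted p = 0.00790) and *Bid* changed by -0.54 ± 0.13 (adjusted p = 0.0115) in edgeR's quasi-likelihood test (Benjamini-Hochberg). All 3 libraries moved in these directions without overlap. The call of *Pmaip1* was lost without IFN-γ library 1 (edgeR, Benjamini-Hochberg adjusted p = 0.0544) and that of *Bid* without library 1 or 2 with both stimuli (edgeR, Benjamini-Hochberg adjusted p = 0.0529 and 0.0562). *Bcl2l11*, at log2 0.42 ± 0.15, missed the threshold (edgeR, Benjamini-Hochberg adjusted p = 0.0892) but passed without *E. coli* library 3 or library 3 with both stimuli (edgeR, Benjamini-Hochberg adjusted p = 0.0493 and 0.0462), and *Bcl2a1b*, at 0.35 ± 0.13, passed without library 1 with both stimuli (edgeR, Benjamini-Hochberg adjusted p = 0.0374). The effects of *E. coli* on *Bcl2l1* were 1.52 without IFN-γ and 1.18 with it, and those on *Pmaip1* 0.89 and 0.59.

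Whether the joint effect departed from the sum of the log2 effects was tested as an interaction. None of the 10 genes was called by edgeR's quasi-likelihood test, beside 4.62% of all genes called, and the median was -0.25 against 0.00. DESeq2 called 0 as well. At an unadjusted p under 0.05, a looser threshold for which no share of all genes is given here, there were 3 in edgeR and 2 in DESeq2. *Bcl2l11* came nearest, with an interaction of log2 0.79 ± 0.23 in edgeR's quasi-likelihood test (Benjamini-Hochberg) (adjusted p = 0.0558). Its log2 fold change for *E. coli* was -0.38 without IFN-γ and 0.42 with it, and neither passed the test. The interaction of *Bcl2l11* was called without *E. coli* library 3 (log2 0.99, edgeR adjusted p = 0.00823), without library 3 with both stimuli (log2 0.86, edgeR adjusted p = 0.0303) and with at least 10 counts asked for in each library (log2 0.81, edgeR adjusted p = 0.0497). *E. coli* library 3 also had the most RNA of other cells in its group, with markers summed to 35.5 CPM for mast cells (11.0 and 8.02 CPM in the others), 995 CPM for macrophages (685 and 623 CPM) and 124 CPM for B cells (58.7 and 72.9 CPM), and the part of this in the *Bcl2l11* values was not tested. The other genes at an unadjusted p under 0.05 were *Bid*, at -0.48 ± 0.19, and *Bcl2*, at -0.78 ± 0.35. For the remaining 7 genes the 95% intervals of the interaction included 0, and that of *Mcl1*, for instance, ran from -0.26 to 0.50.

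The response to IL-4 was set against the other responses in a model of all 18 libraries, each response taken against the unstimulated libraries of its own set. It differed from the response to *E. coli* for 7 of 10 genes, 1 higher and 6 lower, beside 28.1% of 10671 genes, with a median of -0.79 against 0.04. The difference was 1.18 ± 0.22 for *Bcl2l11*, and from -2.03 ± 0.33 for *Bcl2* to -0.67 ± 0.19 for *Bcl2a1b* among those lower. The difference of *Bcl2a1b* and that of *Bcl2a1d*, -0.98 ± 0.25, lost their call with the copies summed, at -0.31 ± 0.17 (-0.37 ± 0.16 after correction for the limit). From the response to IFN-γ it differed for 7 of 10 genes, 2 higher and 5 lower, beside 27.8% of all genes, with a median of -0.36 against 0.02. *Pmaip1* differed the most, by -2.66 ± 0.24, followed among the lower genes by *Bax* at -1.04 ± 0.23 and *Bak1* at -0.93 ± 0.26, and *Bcl2a1d* and *Bcl2a1b* were higher by 0.80 ± 0.27 and 0.72 ± 0.20. The rise of *Bcl2l11* was alike in size, with a difference of 0.00 and a 95% interval from -0.42 to 0.41. From the response to both stimuli IL-4 differed for 5 of 10 genes, each lower, beside 39.2% of all genes, with a median of -0.53 against 0.00, and *Pmaip1* again differed the most, by -3.28 ± 0.24. With the *Bcl2a1* copies summed there was a difference upward, of 0.78 ± 0.17 by edgeR's quasi-likelihood test (Benjamini-Hochberg adjusted p = 8.76e-04), where *Bcl2a1b* at 0.34 ± 0.20 and *Bcl2a1d* at 0.33 ± 0.27 alone were not called.

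Some of these differences rested on 1 library, by edgeR's quasi-likelihood test (Benjamini-Hochberg). Against IFN-γ, *Bcl2a1d* was not called without unstimulated library b or f, IFN-γ library 2 or IL-4 library 1 or 2 (edgeR adjusted p = 0.0822, 0.0560, 0.111, 0.0511 and 0.0643). *Bid* in that comparison, at -0.75 ± 0.23, was not called without unstimulated library a or e or IL-4 library 3 (edgeR adjusted p = 0.0604, 0.0554 and 0.0501). *Bak1* there, at -0.93 ± 0.26, was -0.60 without unstimulated library e and was still called (edgeR adjusted p = 0.0313). *Bcl2l1* there, at 0.59 ± 0.23, was not called, but was without unstimulated library e or IFN-γ library 1 (edgeR adjusted p = 0.00750 and 0.0175). Against both stimuli, *Bcl2l1* at -0.62 ± 0.22 was not called without unstimulated library a or e, library 2 with both stimuli or IL-4 library 1 (edgeR adjusted p = 0.0841, 0.0835, 0.0795 and 0.0721). Without unstimulated library e the numbers of genes called were 3 for IL-4 against unstimulated cells and 7, 7 and 4 for its response against those to *E. coli*, IFN-γ and both. Shares of all genes called without that library are not given here.

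The unstimulated libraries of the sets differed in level, which cannot be told apart from how each set was prepared and counted. *Bcl2* was 14.5 to 20.3 CPM in libraries a to c and 31.5 to 47.2 CPM in d to f, *Pmaip1* 58.9 to 89.6 CPM and 158 to 246 CPM, and *Bcl2a1d* 48.4 to 68.4 CPM and 19.8 to 22.8 CPM. *Bcl2l11* and *Bax* were closer, at 37.4 to 41.7 CPM and 32.0 to 38.0 CPM for the former and 77.6 to 113 CPM and 80.5 to 104 CPM for the latter. For this reason no level with IL-4 was compared with one of the other set.

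Over the 12 libraries of set 1, the genes most like each member were found by Pearson correlation of log2 CPM among 9882 other genes. The libraries share 4 groups and 3 controls, so these correlations describe the pattern over groups. *Pmaip1* was most like *Vegfa* (0.991), *Nfil3* (0.988) and *Ppme1* (0.987). *Bcl2l11* was most like *Pnrc1* (0.977), *Bnip3l* (0.975), itself a BH3-only relative of the family, and *Snx10* (0.974). *Mcl1* was most like *Creg1* (0.985), *Tapbp* (0.979) and *mt-Co3* (0.976), and *Bak1* like *Klf4* (0.956), *Nxn* (0.944) and *Ss18* (0.942). These levels were not corrected for the limit on counts described for *Mcl1*, and the part of that limit in the likeness of *Mcl1* to other abundant genes was not tested. *Bcl2l1* was nearest to *Mrpl41* (0.974), the RNase gene *Ear6* (0.966) and *Pole4* (0.961). *Bcl2* was nearest to *Gm14005* (0.970), the chemokine receptor gene *Cxcr2* (0.969) and *9830107B12Rik* (0.968). *Bcl2a1b* was nearest to *Prmt7* (0.977) and *Bcl2a1d* to *Tmx2* (0.966), with each the second nearest of the other (0.962), and these copies share sequence. *Bax* and *Bid* had no gene as close, at 0.909 with *Klhdc3* and 0.900 with *Letmd1*.

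Other genes of the family, 16 by name, had 8 that were tested in set 1 and 7 in the IL-4 set. *Bnip3*, a BH3-only relative that also acts in the removal of mitochondria, was 44.4 to 47.9 CPM unstimulated, 132 to 163 CPM with *E. coli*, 616 to 1044 CPM with IFN-γ and 1072 to 1239 CPM with both. These groups did not overlap, and *Bnip3* rose 18.1 fold with IFN-γ (log2 4.18 ± 0.18) and 25.3 fold with both (log2 4.66 ± 0.18). With IL-4 it rose from 1.11 to 3.81 CPM to 6.81 to 10.4 CPM. Of the 8, 2 were called higher and 2 lower with *E. coli* (median log2 fold change -0.17), 4 and 1 with IFN-γ (0.60), and 2 and 2 with both (0.49). With IL-4 1 of 7 was called, *Bnip3*, with a median of 0.22. Over all genes, 30.2%, 31.6%, 49.0% and 10.3% were called with *E. coli*, IFN-γ, both and IL-4, and the all-gene medians are those given above. *Bbc3*, the gene of the BH3-only protein PUMA, rose by log2 0.92 ± 0.30 with IFN-γ but not with both stimuli (-0.34 ± 0.36), and was lower with both than with IFN-γ alone (-1.26 ± 0.33). *Bnip3l* rose by 1.28 ± 0.11 with both and changed by -0.57 ± 0.12 with *E. coli*. *Bad* changed by -0.52 ± 0.19 with both, and *Bcl2l13* rose by 0.52 ± 0.16 with *E. coli*. *Bcl2l14* had 5 to 7 counts per unstimulated library and 0 to 3 with *E. coli*, too few for a fold change to be given, and 10 to 21 counts with IFN-γ.

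Downstream of the mitochondria, the list of apoptosome genes and executioner caspases held 13 genes, 11 tested in set 1 and 9 in the IL-4 set. Of the 11, 2 rose and 3 fell with *E. coli* (median -0.18), 2 rose and 2 fell with IFN-γ (-0.13), 2 rose and 3 fell with both (-0.19), and of the 9, 1 rose with IL-4 (median -0.09), where 30.2%, 31.6%, 49.0% and 10.3% of all genes were called. The log2 fold changes of *Cycs*, the gene of cytochrome c, were 0.77 ± 0.12 with *E. coli*, 0.73 ± 0.12 with IFN-γ and 1.47 ± 0.12 for the combination, and *Diablo*, whose protein binds caspase inhibitors, had 0.69 ± 0.19, 0.71 ± 0.19 and 1.06 ± 0.19. The executioner caspase gene *Casp6* changed by -1.65 ± 0.22, -1.16 ± 0.22 and -1.57 ± 0.24 with these stimuli and rose by 0.96 ± 0.17 with IL-4. *Htra2*, whose protein leaves mitochondria with cytochrome c, changed by -0.57 ± 0.20 with *E. coli* and -0.83 ± 0.22 with both, and *Dffa*, an inhibitor of the apoptotic nuclease, by -0.68 ± 0.25 with IFN-γ.

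The list of inhibitor of apoptosis (IAP) family genes and of inhibitors of caspases and granzymes held 12 genes, 11 of them tested in either set. With *E. coli* 4 were called, each lower (median -0.23), with IFN-γ 6 higher and 1 lower (0.46), with both 5 and 2 (0.33), and with IL-4 1 and 2 (0.15), beside 30.2%, 31.6%, 49.0% and 10.3% of all genes. *Serpinb9*, a granzyme B inhibitor, changed by log2 -1.51 ± 0.24 with *E. coli*, 2.25 ± 0.19 with IFN-γ, 1.72 ± 0.20 with both and -0.76 ± 0.20 with IL-4. *Birc3*, which encodes cIAP2, rose by 0.71 ± 0.10 with IFN-γ, and *Cflar*, the gene of the caspase-8 inhibitor c-FLIP, by 0.87 ± 0.12 with both. *Serpinb6a* rose by 0.63 ± 0.22 with IFN-γ and 0.75 ± 0.22 with both and changed by -0.54 ± 0.14 with IL-4. *Naip1*, *Naip5* and *Naip6*, listed by family and not as known caspase inhibitors, changed by -1.04 ± 0.31, -0.90 ± 0.12 and -0.78 ± 0.21 with *E. coli*. With *Serpinb9* they were the genes of this list called lower with *E. coli*, so that count is not one of caspase inhibitors. With IFN-γ *Naip1* rose by 0.78 ± 0.26 and *Naip5* changed by -0.54 ± 0.12, with both *Naip5* and *Naip6* changed by -0.61 ± 0.12 and -1.01 ± 0.23, and with IL-4 *Naip5* rose by 0.89 ± 0.13. Differences between these genes were not tested. Whether reads were shared among these genes was not measured.

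Of 14 death receptor and necroptosis genes 13 were tested in either set. The numbers called were 4 higher and 1 lower with *E. coli* (median 0.00), 4 higher with IFN-γ (0.22), 7 higher and 1 lower with both (0.47) and 1 higher with IL-4 (0.08), beside 30.2%, 31.6%, 49.0% and 10.3% of all genes. *Ripk3*, the kinase gene of necroptosis, rose by log2 1.39 ± 0.22, 0.69 ± 0.25 and 1.32 ± 0.23 with *E. coli*, IFN-γ and both. *Tnfrsf1b*, a TNF receptor gene, rose by 0.88 ± 0.17, 0.52 ± 0.17 and 1.55 ± 0.17. *Traf1*, an adaptor of TNF receptors, rose by 0.98 ± 0.32 with *E. coli* and 1.58 ± 0.32 with both, and the TNF receptor gene *Tnfrsf1a* by 0.73 ± 0.15 with IFN-γ and 0.84 ± 0.15 with both. The kinase gene *Ripk1* rose by 0.39 ± 0.14 with IFN-γ and 0.47 ± 0.14 with both, and the adaptor gene *Fadd* changed by -0.85 ± 0.29 with both. *Tnfsf10*, the gene of the death ligand TRAIL, changed by -1.77 ± 0.31 with *E. coli* and rose by 1.33 ± 0.23 with IL-4, from 12.5 to 24.7 CPM to 41.9 to 45.4 CPM.

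Genes that regulate BCL2 proteins or their transcription were 18, each tested in both sets. With *E. coli* 1 was higher and 1 lower (median 0.14), with IFN-γ 7 were called, each higher (0.34), with both 11 were higher and 2 lower (0.42), and with IL-4 1 was called, *Vdac3*, at log2 -0.86 ± 0.21 (median of the list -0.17). The shares of all genes called were 30.2%, 31.6%, 49.0% and 10.3%. *Ddit3* and *Trib3* belong to the stress response that *Atf4* governs. *Trib3* rose by 1.92 ± 0.33 with IFN-γ and 3.12 ± 0.30 with both, *Ddit3* by 1.00 ± 0.17 with both and *Atf4* by 0.52 ± 0.10 with IFN-γ. *Foxo1*, a factor known to act on *Bcl2l11*, rose by 1.35 ± 0.18 with both, while *Foxo3*, of the same list, changed by -0.41 ± 0.13. The gene of the mitochondrial channel VDAC1, *Vdac1*, rose by 1.32 ± 0.16 with IFN-γ and 1.71 ± 0.16 with both, and *Usp9x*, whose protein stabilises MCL1, by 0.59 ± 0.14 and 0.67 ± 0.14. With *E. coli* the called genes were *Dnm1l*, at 1.00 ± 0.15, and *Trp53*, at -0.51 ± 0.16, and both were called with both stimuli as well (0.52 ± 0.17 and -0.52 ± 0.17).

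The survival pathway of IL-5 was followed in 15 genes, each tested in both sets. With *E. coli* 3 rose and 2 fell (median -0.01), with IFN-γ 4 and 3 (0.05), with both 7 and 1 (0.23) and with IL-4 3 and 1 (-0.16), in comparisons that called 30.2%, 31.6%, 49.0% and 10.3% of all genes. *Il5ra*, the receptor chain for IL-5, was 154 to 208 CPM in unstimulated libraries a to c, 68.5 to 73.6 CPM with *E. coli*, 123 to 151 CPM with IFN-γ and 58.0 to 86.0 CPM with both. It changed by log2 -1.35 ± 0.14 with *E. coli* and -1.28 ± 0.15 with both, and rose by 0.60 ± 0.14 with IL-4. *Pim2*, a survival kinase gene downstream of cytokine receptors, was 127 to 143 CPM unstimulated, 790 to 853 CPM with *E. coli*, 53.8 to 56.2 CPM with IFN-γ and 367 to 397 CPM with both. These groups did not overlap and stood in the same order as those of *Bcl2l1*, with changes of 2.59 ± 0.10, -1.32 ± 0.11 and 1.47 ± 0.10. *Pim3* rose by 1.42 ± 0.16 with both, and *Pim1* by 0.34 ± 0.12 with *E. coli*. The receptor gene *Csf2rb2* rose by 0.85 ± 0.13 with *E. coli*, 0.89 ± 0.13 with IFN-γ and 1.31 ± 0.13 for the combination. With IFN-γ *Stat5b* rose by 0.70 ± 0.21, and the fold change of *Csf2rb* as counted was 0.51 ± 0.15. Values of this list were not corrected for the limit on counts in set 1 described for *Mcl1*. Where counts of *Csf2rb* lie near that limit, its fold changes show neither a rise nor the lack of one. With IL-4 the largest called change was a fall, of *Il3ra* by -0.87 ± 0.23, and *Jak2* rose by 0.57 ± 0.11 and *Nfkb1* by 0.64 ± 0.14.

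Markers of other cells moved with the stimuli, and their part in the results was not tested. B cell markers, 10 genes each with counts in set 1 and 9 in the IL-4 set (*Fcer2a* at 0), summed to 316, 311 and 187 CPM in unstimulated libraries a to c, 58.7, 72.9 and 124 CPM with *E. coli*, 163, 104 and 88.9 CPM with IFN-γ and 186, 205 and 232 CPM with both. They were thus lower with *E. coli*, where *Bcl2* and *Bcl2a1b* were highest, and lower with IFN-γ, where both were lowest. Unstimulated libraries d to f summed to 57.5, 55.5 and 99.9 CPM and the IL-4 libraries to 121, 110 and 140 CPM. *Igkc* was the most abundant on average, at 15.9 to 109 CPM and 31.8 to 74.9 CPM in the sets. All 5 tested B cell markers fell with *E. coli* (median -1.70) and with IFN-γ (-1.26), none of the 5 was called with both (-0.33), and 3 of 4 rose with IL-4 (1.17), where 30.2%, 31.6%, 49.0% and 10.3% of all genes were called. They were all called higher with both stimuli than with *E. coli* alone (median 1.44) and all higher in the interaction (median 2.48), beside 32.8% and 4.62% of all genes. *Bcl2l11* was also higher in the former comparison and came nearest to a call in the latter. Against IFN-γ alone 3 of the 5 were higher with both stimuli (median 0.84), beside 12.2% of all genes. The response to IL-4 was higher than those to *E. coli*, IFN-γ and both for 5, 5 and 3 of 5 B cell markers (medians 2.72, 2.49 and 1.63), beside 28.1%, 27.8% and 39.2% of all genes. The most changed were *Cd79b* (-1.82 ± 0.32), *Ighm* (-1.82 ± 0.30), *Igkc* (-1.70 ± 0.31) and *Cd79a* (-1.48 ± 0.23) with *E. coli*, *Cd79b* (-1.42 ± 0.33), *Cd79a* (-1.26 ± 0.24), *Ighm* (-1.26 ± 0.29) and *Ms4a1* (-1.22 ± 0.37) with IFN-γ, and *Ms4a1* (1.76 ± 0.41), *Cd79b* (1.44 ± 0.35) and *Ighm* (0.90 ± 0.20) with IL-4.

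Macrophage markers, 9 genes each with counts in either set, summed to 1052, 937 and 1028 CPM unstimulated, 685, 623 and 995 CPM with *E. coli*, 1521, 1463 and 1442 CPM with IFN-γ and 1288, 1452 and 1643 CPM with both, and so were higher with IFN-γ, alone or with *E. coli*, as were *Mcl1*, *Bak1*, *Bcl2l11* and *Pmaip1*. In the IL-4 set the sums were 2121, 2427 and 2723 CPM unstimulated and 1798, 1725 and 2003 CPM with IL-4, and the most abundant were *Csf1r* (353 to 488 CPM) in the former set and *C1qc* (699 to 1022 CPM) in the latter. Of 7 tested, *E. coli* lowered 2 (median -0.48), IFN-γ raised 3 (0.31), both stimuli raised 3 (0.39), and of 8, 3 were lower with IL-4 (-0.17), beside 30.2%, 31.6%, 49.0% and 10.3% of all genes. Against *E. coli* alone 4 of the 7 were higher with both stimuli (median 0.92, *Marco* at 3.05 ± 0.17), beside 32.8% of all genes. In the interaction 2 were higher (median 0.33), *Marco* at 2.01 ± 0.23 and *Timd4* at 1.62 ± 0.34, beside 4.62% of all genes. The most changed were *Marco* (-1.72 ± 0.17) and *Timd4* (-1.62 ± 0.25) with *E. coli*, *C1qb* (1.04 ± 0.23), *Marco* (1.04 ± 0.16) and *Csf1r* (0.31 ± 0.10) with IFN-γ, *Lyve1* (1.54 ± 0.44), *Marco* (1.33 ± 0.16) and *C1qb* (0.85 ± 0.23) with both, and *Marco* (-2.77 ± 0.14), *Csf1r* (-0.68 ± 0.14) and *C1qb* (-0.51 ± 0.14) with IL-4. For 8 macrophage markers the response to IL-4 was lower than those to *E. coli*, IFN-γ and both for 2, 3 and 3 (medians 0.03, -0.42 and -0.67), and higher than that to *E. coli* for 1. Of all genes, 28.1%, 27.8% and 39.2% were called in these comparisons. Neutrophil markers, 11 genes each with counts in either set, summed to 752, 1008 and 841 CPM unstimulated, 589, 552 and 649 CPM with *E. coli*, 1126, 1071 and 1218 CPM with IFN-γ and 632, 665 and 763 CPM with both. In the IL-4 set they summed to 2144, 2193 and 1834 CPM unstimulated and 813, 850 and 769 CPM with IL-4, falling with *Pmaip1*. *Retnlg* was the most abundant on average, at 275 to 676 CPM and 707 to 1978 CPM, and the defining genes *Mpo*, *Elane*, *Ltf* and *Ngp* had fewer than 3 counts in each library of set 1. Of 4 tested there, 1 rose and 1 fell with *E. coli* (median -0.30), 3 rose with IFN-γ (1.49), 2 rose and 1 fell with both (0.90), and of 5, 2 fell with IL-4 (-0.71), again beside 30.2%, 31.6%, 49.0% and 10.3% of all genes. Of the 4, 1 was higher with both stimuli than with *E. coli* alone (median 0.26), and 1 was lower in the interaction (-0.32), beside 32.8% and 4.62% of all genes. Against IFN-γ alone *Retnlg* (-0.98 ± 0.12) and *Mmp9* (-0.60 ± 0.15) were lower with both stimuli (median -0.62), beside 12.2% of all genes. The response to IL-4 was lower than those to *E. coli*, IFN-γ and both for 2, 4 and 3 of 5 neutrophil markers (medians -0.29, -1.80 and -1.19), beside 28.1%, 27.8% and 39.2% of all genes. The called genes were *S100a8* (3.06 ± 0.42) and *Retnlg* (-1.02 ± 0.12) with *E. coli*, *Ly6g* (2.27 ± 0.32), *S100a8* (2.20 ± 0.45) and *Mmp9* (0.78 ± 0.15) with IFN-γ, *S100a8* (2.71 ± 0.44), *Ly6g* (1.63 ± 0.35) and *Retnlg* (-0.90 ± 0.12) with both, and *Mmp9* (-2.37 ± 0.21) and *Retnlg* (-1.30 ± 0.11) with IL-4.

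Mast cell markers, 8 genes each with counts in either set, summed to 11.2, 8.24 and 7.85 CPM unstimulated, 11.0, 8.02 and 35.5 CPM with *E. coli*, 33.0, 15.9 and 15.0 CPM with IFN-γ and 41.6, 84.4 and 73.9 CPM with both, so that they were highest where *Pmaip1* and *Bcl2l11* were highest. With IL-4 they summed to 17.7, 7.98 and 23.8 CPM, against 10.3, 6.79 and 7.74 CPM unstimulated. *Tpsb2* was the most abundant on average, at 3.17 to 29.0 CPM in set 1 and 2.22 to 8.55 CPM in the IL-4 set. Of the 2 that were tested, 1 was called with IFN-γ (median 1.27) and 2 with both (3.05), each higher, and the medians with *E. coli* and IL-4, where neither was called, were 0.99 and 1.39. Per library of set 1, *Cma1* had 3 to 8 counts unstimulated, 4 to 23 with *E. coli*, 7 to 11 with IFN-γ and 18 to 60 with both. The libraries with both stimuli helped it pass the filter on low counts, so its calls there are no independent sign of a rise. The called genes were *Tpsb2* with IFN-γ (1.51 ± 0.52) and with both (2.65 ± 0.47) and *Cma1* with both (3.45 ± 0.53). Both were higher with both stimuli than with *E. coli* alone (median 2.06), and *Cma1* was higher than with IFN-γ alone (2.42 ± 0.49), beside 32.8% and 12.2% of all genes. T cell markers, 12 genes, summed to 11.0 to 21.9 CPM in set 1 and 12.3 to 18.9 CPM in the IL-4 set. *Cd5* was at 0 in the former and *Trbc1* in the latter, *Il7r* was the most abundant, at 4.49 to 11.5 CPM and 7.50 to 16.8 CPM, and 2 of the 12 were tested in either set. Eosinophil markers themselves had medians of -0.16 with *E. coli* (2 of 8 higher, 2 lower), -0.50 with IFN-γ (1 higher, 5 lower), -0.74 with both (2 higher, 5 lower) and 0.31 with IL-4 (4 of 12 higher, 1 lower). For these and the mast cell markers the shares of all genes called were 30.2%, 31.6%, 49.0% and 10.3%. With both stimuli 4 of the 8 eosinophil markers were lower than with *E. coli* alone (median -0.50), beside 32.8% of all genes. Against IFN-γ alone 2 were higher and 3 lower with both stimuli (median -0.28), beside 12.2% of all genes. Of 10 tested, the response to IL-4 was higher than those to *E. coli*, IFN-γ and both for 3, 5 and 6, and lower for 2 in each. The medians were 0.45, 0.75 and 0.65, and 28.1%, 27.8% and 39.2% of all genes were called. The most changed were *Il5ra*, given above, *Ear6* (1.29 ± 0.16), *Siglecf* (-0.68 ± 0.12) and *Gata1* (0.56 ± 0.10) with *E. coli*, *Ear6* (-0.93 ± 0.19), *Prg2* (-0.81 ± 0.19), *Siglecf* (-0.70 ± 0.12) and *Cebpe* (-0.63 ± 0.14) with IFN-γ, *Siglecf* (-1.55 ± 0.12), *Prg2* (-1.13 ± 0.21) and *Cebpe* (-0.88 ± 0.14) with both, and *Ear6* (1.34 ± 0.12), *Prg2* (0.83 ± 0.21) and *Ccr3* (-0.72 ± 0.15) with IL-4.

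**Figure D4:**
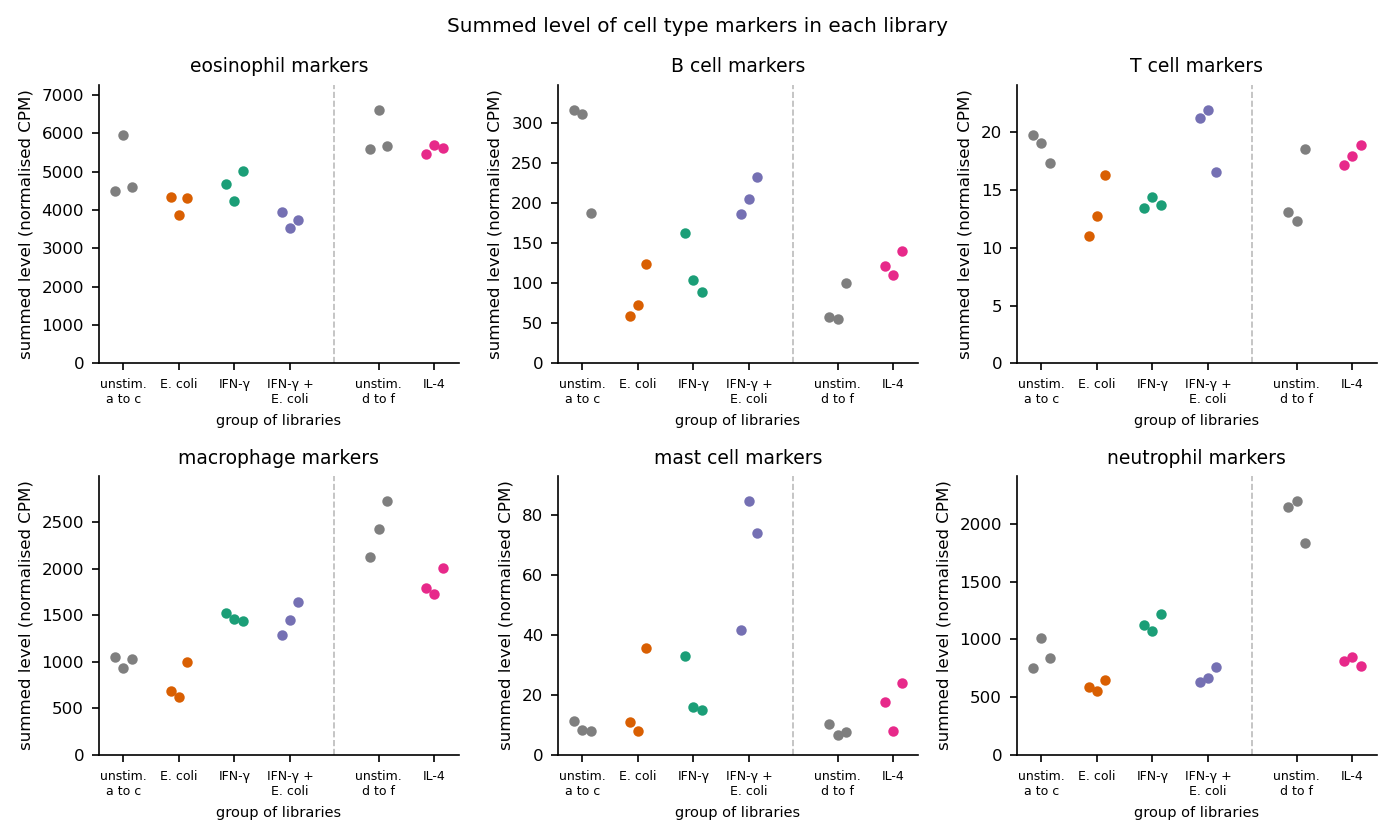
Summed level in normalised CPM (vertical axis) of the markers of each cell type in each library (points), by group (horizontal axis), with a dashed line between the 2 sets. B cell markers summed to 187 to 316 CPM in unstimulated libraries a to c and 58.7 to 124 CPM with *E. coli*.

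Promoters of the members were searched for letters that some transcription factors bind. Of the 10 genes 9 were searched, with 12 RefSeq promoters of GRCm38.p6. *Pmaip1* was left out of the search, so nothing is said here of its promoter. The 250 bases before each start were searched on both strands. The letters TGANTCA, a loose form of the AP-1 site with any base at N, occurred in 6.75% of 32851 promoters. Among the 9 genes they were in the promoters of *Bcl2a1b* and *Bcl2a1d*, each time with A at N. An NF-κB consensus occurred in 7.25% of all promoters and in 1 of the *Bcl2l1* promoters. The letters TTCNNNGAA, known from STAT factors, occurred in 7.02% of all promoters and TATAAA in 12.4%, and these letters were not in the windows of the 9 genes. Shown are 96 bases around TGANTCA, in capitals, which starts 164 bases before the start of *Bcl2a1b*, 114 before that of *Bcl2a1d* and 120 before that of *Bcl2a1a*. The stretches are at chr9:89199059-89199154 on the plus strand, chr9:88731919-88732014 on the minus strand and chr9:88956750-88956845 on the plus strand of GRCm38.p6. A match is a description of the letters, and binding of a factor was not measured.
Bcl2a1b: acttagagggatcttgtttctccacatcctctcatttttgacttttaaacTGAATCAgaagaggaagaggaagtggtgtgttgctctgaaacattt
Bcl2a1d: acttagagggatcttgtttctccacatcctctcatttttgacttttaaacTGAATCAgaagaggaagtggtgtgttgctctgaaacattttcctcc
Bcl2a1a: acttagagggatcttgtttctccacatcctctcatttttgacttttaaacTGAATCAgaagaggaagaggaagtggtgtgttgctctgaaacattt

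Other overlaps of genes limit some counts. On GRCm38, exons of *Bcl2* overlap those of the antisense gene *D630008O14Rik*, exons of *Bak1* those of *Ggnbp1* and exons of *Bid* those of *Bcl2l13*, on the opposite strand. Whether the counting used the strand is not stated, so reads from these overlaps cannot be told apart. *Gm29094* and *Gm45808* overlap *Bcl2a1b* and *Bax* on the same strand, and reads that lie in both genes of a pair were left out by the counting.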

How the data were processed

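The authors deposited a count per Ensembl gene and library, with no normalization. Per the study's methods, CEL-Seq2 reads were aligned to GRCm38 with TopHat2 2.1.0, and uniquely mapped reads were counted with HTSeq 0.6.1 in union mode, while fastp 0.20.1 and STAR 2.7.2a are named without the libraries they served. Whether molecular identifiers were collapsed is not stated. In set 1, the 12 libraries other than those of IL-4 and its controls, 18.9% to 37.6% of reads lay on no gene. Symbols and positions come from GENCODE M21, which matched 98.3% and 99.7% of the genes of the 2 sets.

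R 4.3.3 was used with edgeR 4.0.16 and DESeq2 1.42.0. Genes were kept by filterByExpr, normalized by TMM and tested with edgeR's quasi-likelihood test, Benjamini-Hochberg adjusted over all genes with a threshold of 0.05, after a test on simulated counts. Models held the 12 libraries of set 1, the 6 of the IL-4 set, or all 18 with each set's controls as a group. Standard errors were derived from fold change and F statistic. The alternatives were DESeq2's size factors, DESeq2, other filters, only the 6 libraries compared, a change by a factor of 2, each library left out, the replicate block, counts corrected for saturation at 4096, and *Bcl2a1* copies summed. Copies summed after the correction for saturation were added after the data had been seen.

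The 10 members and all lists were chosen with earlier results of these data known. Some genes planned for the lists were not used here. Named were all members, up to 4 called genes of each other list with the largest change in each comparison with unstimulated cells, *Bcl2a1a* and *Bcl2a1c*, and the 3 genes most like a member (fewer for some). Other markers, *Foxo3*, and calls of *Bbc3*, *Tnfrsf1a*, *Ripk1*, *Naip5*, *Dnm1l*, *Trp53*, *Usp9x*, *Marco*, *Timd4*, *Cma1*, *Retnlg* and *Mmp9* in further comparisons, were named after their values were seen.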

Additional observations from a re-analysis of the deposited data

How the results depend on the processing

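Of the values for single genes under all alternatives but the factor of 2, 1814 kept their direction and side of the threshold, 53 lost their call, 22 gained it and 29 changed direction, values of 0.00 not counted as having any. Asking also for a change by a factor of 2 left 2 genes called with *E. coli*, 3 with IFN-γ, 2 with both stimuli and 0 with IL-4. It left 1 for both stimuli against IFN-γ, and 4, 2 and 3 for the response to IL-4 against those to *E. coli*, IFN-γ and both. For both stimuli against *E. coli* it left *Bcl2*, *Bcl2l1*, *Bcl2a1b*, *Bcl2a1d*, *Bcl2l11* and *Pmaip1*. In the count of 0 with IL-4 the tool was edgeR, which called 3 without the factor. Leaving out each library gave 1 to 3 genes called with IL-4 (1 without IL-4 library 3) and 0 to 1 for the interaction (1, *Bcl2l11*, without *E. coli* library 3 or library 3 with both stimuli), and asking for at least 10 counts gave 1 for the interaction. Shares of all genes under these alternatives are not given here, so these counts do not compare the members with other genes. Directions changed only for log2 fold changes that did not pass the test. *Bak1* with *E. coli* was 0.03 without a filter and 0.01 in the 6 libraries compared, and *Mcl1* was -0.07 for both stimuli against IFN-γ and -0.04 for the interaction when corrected for saturation, and 0.06 for the response to IL-4 against that to *E. coli* with at least 10 counts. With 1 library left out, *Bak1* ran from -0.06 to 0.08 with *E. coli*, -0.06 to 0.17 for both stimuli against IFN-γ, -0.06 to 0.16 for the interaction, -0.46 to 0.03 with IL-4 and -0.47 to 0.03 for IL-4 against *E. coli*. *Mcl1* ran from -0.16 to 0.04, -0.04 to 0.15, -0.01 to 0.21, -0.16 to 0.05 and -0.13 to 0.11 in these comparisons. *Bcl2a1b* with IL-4 ran from -0.18 to 0.03, *Bid* with *E. coli* from -0.14 to 0.09, and for IL-4 against IFN-γ *Bcl2* from -0.06 to 0.41 and *Bcl2l11*, at 0.00, from -0.05 to 0.07. The cause was not tested. Deviations from the group means correlated between same-numbered libraries at -0.0450, 0.212 and 0.331 for IFN-γ and both stimuli and at 0.0706, 0.0986 and 0.163 for *E. coli* and both. Between differently numbered libraries they ran from -0.377 to 0.266 and from -0.238 to 0.197, so whether the numbers pair libraries is not settled. With the number as a replicate block the genes called were 1430 in place of 1209 against IFN-γ and 3447 in place of 3240 against *E. coli*. Of the 10 genes, 3 and 8 were called, as without the block. At 13 to 23 counts per library with IFN-γ or both stimuli, *Bcl2* was the gene most limited by depth.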
